A study of Mus musculus with 4 samples.

Results

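The MHC class II presentation core comprises 10 genes given by symbol, namely Ciita, Cd74, H2-Aa, H2-Ab1, H2-Eb1, H2-Ob, H2-DMa, H2-DMb2, Rfx5 and Ctss, and all 10 had a row among the 16591 genes of the count table. They were examined by RNA sequencing in a JQ1-resistant line (JQ1R) and a JQ1-sensitive line (JQ1S) of Eμ-Myc lymphoma, with 2 libraries from each. JQ1 inhibits BET bromodomain proteins, which read acetylated histones, and both lines are C57BL/6 mouse B-lineage lymphoma cells in which Myc is driven by the immunoglobulin heavy-chain enhancer. Early-passage cells were grown in medium alone, with no drug named before harvest. Each condition is a single line, so what resistance brings and what else distinguishes the lines cannot be told apart, and since the labels do not name separate cultures, the p-values measure only the spread between these libraries, which may be technical.

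MHC class II molecules are heterodimers of an alpha and a beta chain that display peptides from the endosomal pathway to CD4+ T cells, and mature B cells are among the cells that carry them constitutively. The invariant chain, encoded by Cd74, fills the peptide groove after synthesis, cathepsin S (Ctss) trims it to a short fragment, and the H2-DM heterodimer (H2-DMa with a DM beta chain) exchanges that fragment for peptide, a step that the H2-O heterodimer (H2-Oa with H2-Ob) restrains in B cells. Transcription of the classical (A and E) chain genes and Cd74 is switched on by CIITA, a co-activator that does not bind DNA itself. CIITA docks on a promoter-bound assembly. In it the RFX complex (RFX5, RFXAP, RFXANK) sits on the X box, CREB next to it and NF-Y on the Y box. C57BL/6 mice do not express the E alpha chain, so in this strain the A heterodimer of H2-Aa and H2-Ab1 is the class II molecule that reaches the surface.

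The X and Y boxes can be read together in the promoters of some of the chain genes. These sequences are shown because such boxes are where RFX5 and, through it, CIITA act. The stretches below come from RefSeq promoters on GRCm38.p6, written 5′ to 3′ on the strand of the gene, with capitals marking GCAAC, the core of the X box, and GATTGG, the Y box. In H2-DMb2 the capitals mark the Y box alone. H2-DMa also has a Y box that does not follow GCAAC at the spacing given below, and it is not shown. None of these stretches overlaps an exon of GENCODE M21.
H2-Aa, chr17:34287852-34287919, minus strand: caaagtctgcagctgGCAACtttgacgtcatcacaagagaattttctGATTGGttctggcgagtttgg
H2-Eb1, chr17:34305761-34305827, plus strand: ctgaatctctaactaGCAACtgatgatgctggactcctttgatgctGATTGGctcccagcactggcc
H2-Ob, chr17:34238803-34238867, plus strand: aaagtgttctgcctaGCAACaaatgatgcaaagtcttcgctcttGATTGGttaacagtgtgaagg
H2-DMb2, chr17:34145118-34145178, plus strand: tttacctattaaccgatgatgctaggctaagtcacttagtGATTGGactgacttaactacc
Of the 10 genes, 7 had a promoter in the RefSeq table, and Ciita, Cd74 and H2-Ab1 had none. Over the 250 bases before the start and on either strand, GCAAC occurred in 29.9% and GATTGG in 14.6% of all 32851 promoters. GCAAC followed after 20 to 30 bases by GATTGG occurred in 58 of them (0.177%), among them those of H2-Aa, H2-Eb1 and H2-Ob, where 27, 26 and 24 bases lie between the motifs. The motifs do not overlap each other, and the allowed spacing was set after these promoters had been read. The letters describe the promoters and say nothing of what was bound there in either line.

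Library totals were 10928239 and 11809635 counts in the resistant line and 13048103 and 10346007 counts in the sensitive line. A floor of 3 counts per library corresponded to 0.253 to 0.275 CPM (counts on a common library size, scaled by TMM) in resistant cells and 0.231 to 0.292 CPM in sensitive cells. The class II genes fell into 2 sets. Cd74, H2-Ab1, H2-Ob, Rfx5 and Ctss had over 100 counts in every library, whereas Ciita, H2-Aa, H2-Eb1, H2-DMa and H2-DMb2 had at most 13 in any library, and the table itself holds only genes with at least 4 counts over the 4 libraries. Together the 10 genes took 0.0234% and 0.0226% of counts in the resistant libraries, against 0.0178% and 0.0177% in the sensitive libraries, and Ctss alone made up 45.0% and 42.9% of their counts in resistant cells, against 50.5% and 51.3% in sensitive cells.

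**Figure D1:**
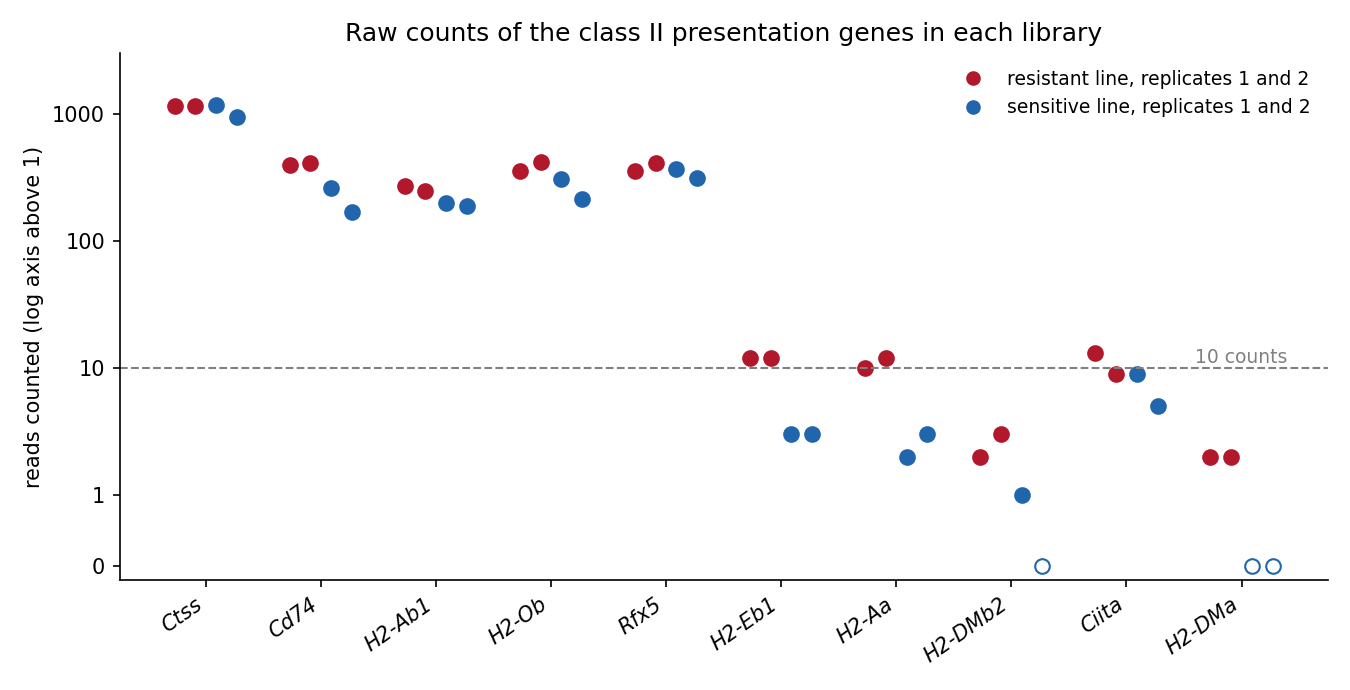
Raw reads counted for each class II presentation gene (log axis above 1) in the 2 resistant (red) and 2 sensitive (blue) libraries, with open points for 0 counts and a dashed line at 10 counts. Genes from Ctss to Rfx5 lie above 100 counts in every library, and the other 5 at 13 counts or fewer.

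The filter on low counts kept 7 of the 10 genes and left out Ciita, H2-DMa and H2-DMb2. In the edgeR quasi-likelihood test, with Benjamini-Hochberg adjustment over all 11945 tested genes and a threshold of 0.05, 2 class II genes rose in resistant cells, Cd74 and H2-Ob, 0 fell, and 5 did not pass. Over all tested genes 2.20% were called higher and 3.73% were called in either direction. Both resistant libraries stood above both sensitive libraries in all 7 tested genes, an arrangement found in 24.1% of all tested genes. H2-Aa and H2-Eb1 passed the filter through the resistant libraries alone, with 0 sensitive libraries over its minimum, so for them a higher resistant value was a condition of being tested.

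Cd74 encodes the invariant chain. It stood at 36.2 and 34.8 CPM in resistant cells, against 20.2 and 16.5 CPM in sensitive cells, from 395 and 413 counts against 262 and 170. The groups did not overlap, and the resistant libraries lay closer together than the sensitive ones, which differed by 0.29 on the log2 scale. Cd74 rose 1.91-fold (log2 change 0.94 ± 0.10, SE) at an adjusted p of 2.71e-05 in edgeR. Over 13 alternatives in scaling, filter, tool, a term for the replicate number and the library left out, its log2 change ran from 0.81 to 1.10 and its adjusted p from 3.03e-18 to 4.35e-05. The gene lies on chromosome 18 at 60803848 to 60812652 (GRCm38), apart from the class II chains.

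The classical A heterodimer had unequal chains. H2-Ab1, the beta chain, stood at 24.6 and 20.8 CPM in resistant cells, against 15.3 and 18.4 CPM in sensitive cells, from 269 and 247 counts against 199 and 189. The groups did not overlap, but the lower resistant and the higher sensitive library were close, and the libraries within each line differed by 0.24 and 0.26 on the log2 scale. The log2 change of H2-Ab1 was 0.44 ± 0.12 with an adjusted p of 0.0588 (edgeR), which did not pass. It passed without resistant replicate 2 (0.56, adjusted p = 0.0131), without sensitive replicate 2 (0.56, adjusted p = 2.37e-04) and with no filter (0.44, adjusted p = 0.0408), and its adjusted p ran from 2.37e-04 to 0.452 over the alternatives.

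H2-Aa, the alpha chain, had 10 and 12 counts in the resistant libraries, against 2 and 3 counts in the sensitive libraries. All 4 libraries were near the floor, the sensitive ones at or under it, and the groups did not overlap. The summed counts of 22 against 5 gave a ratio of 4.49 with an exact 95% interval of 1.66 to 15.2, which covers counting error only. In edgeR the log2 change of H2-Aa was 2.11 ± 0.60 with an adjusted p of 0.0670, which missed the threshold. It passed in limma-voom (1.98, adjusted p = 0.0393), and its adjusted p ran from 0.0393 to 0.639 over the alternatives.

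Within each library, H2-Aa made up 3.58% (exact 95% interval 1.73 to 6.49) and 4.63% (2.42 to 7.95) of the counts of H2-Aa and H2-Ab1 in resistant cells, against 0.995% (0.121 to 3.55) and 1.56% (0.323 to 4.50) in sensitive cells. This share does not depend on library scaling. The alpha chain was the scarcer of the pair by counts in all 4 libraries, and the intervals of the lines overlapped.

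H2-Eb1, the E beta chain, had 12 counts in each resistant library, against 3 in each sensitive library. The libraries of each line were equal in counts, and the sensitive ones lay at the floor. The ratio of summed counts, 24 against 6, was 4.08 with an exact 95% interval of 1.63 to 12.2. In edgeR the log2 change of H2-Eb1 was 1.98 ± 0.55 with an adjusted p of 0.0614, which missed the threshold. It passed in limma-voom (1.86, adjusted p = 0.0402), and its adjusted p ran from 0.0402 to 0.625 over the alternatives. A filter on the mean over all 4 libraries, at 1 CPM, which takes no account of line, left out both H2-Aa and H2-Eb1.

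The neighbouring beta chain gene H2-Eb2 had more counts than H2-Eb1 in every library. It stood at 10.7 and 11.4 CPM in resistant cells, against 10.0 and 9.82 CPM in sensitive cells, and did not pass (log2 change 0.15 ± 0.13, adjusted p = 0.615, edgeR). H2-Eb1 made up 9.30% (exact 95% interval 4.90 to 15.7) and 8.16% (4.29 to 13.8) of the counts of the pair in resistant cells, against 2.26% (0.468 to 6.45) and 2.88% (0.599 to 8.20) in sensitive cells. The genes are similar in sequence, so the division of reads between them is uncertain. H2-Ea-ps, the E alpha gene of this strain, had no row among the genes analysed.

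**Figure D2:**
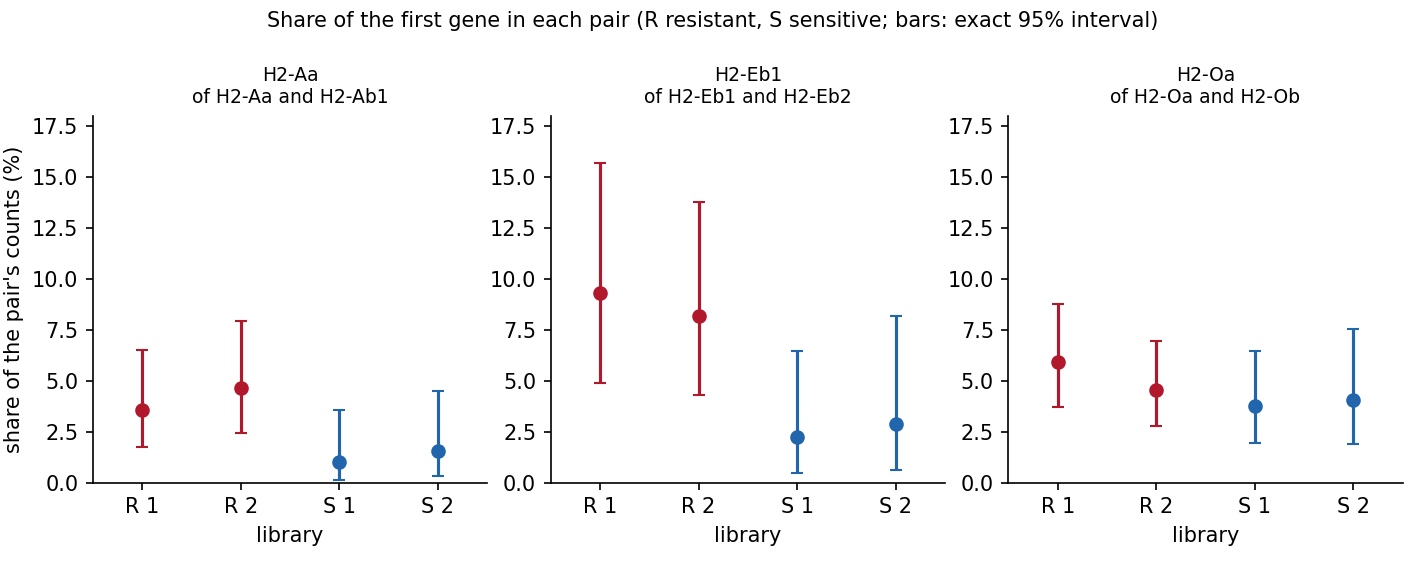
Share of the first gene among the counts of each chain pair (%), per library, for resistant (R, red) and sensitive (S, blue) replicates 1 and 2, with exact 95% intervals as bars. H2-Aa takes at most 4.63% and H2-Eb1 at most 9.30% of its pair, both in resistant libraries, and the intervals of the lines overlap in every panel.

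H2-Ob, the beta chain of the H2-O inhibitor, was the other gene that rose. It stood at 32.1 and 35.3 CPM in resistant cells, against 23.7 and 20.7 CPM in sensitive cells, from 351 and 419 counts against 307 and 213. The groups did not overlap, and the gap between them exceeded the spread within either line. H2-Ob rose 1.51-fold (log2 change 0.60 ± 0.10) at an adjusted p of 0.00156 in edgeR. Over the alternatives its log2 change ran from 0.51 to 0.71 and its adjusted p from 3.13e-08 to 0.00941.

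Its partner H2-Oa, the alpha chain of H2-O, stood at 2.01 and 1.68 CPM in resistant cells, against 0.925 and 0.875 CPM in sensitive cells, from 22 and 20 counts against 12 and 9. The log2 change of H2-Oa was 1.02 ± 0.36 with an adjusted p of 0.146 (edgeR), which did not pass, and 22.8% of its exonic bases overlap a gene on the other strand. H2-Oa made up 5.90% and 4.56% of the counts of H2-Oa and H2-Ob in resistant cells, against 3.76% and 4.05% in sensitive cells.

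The peptide exchange factor H2-DM was at or under the floor in both lines. H2-DMa, its alpha chain, had 2 counts in each resistant library and 0 in each sensitive library, and H2-DMb2, a beta chain, had 2 and 3 counts in resistant cells, against 1 and 0 in sensitive cells. The paralogous beta chain gene H2-DMb1 had 2 and 0 counts in resistant cells, against 1 and 1 in sensitive cells. No fold change is given for values at this floor, and reads shared by the similar DM beta genes could have been divided between them or left uncounted. In GENCODE M21, H2-DMa begins at 34119541 on chromosome 17, inside the span of the oppositely oriented BET gene Brd2 (34112023 to 34122634). A RefSeq promoter of H2-DMa lies past the end of Brd2, with a Y box within 34125279 to 34125339. Of the exonic bases of H2-DMa, 10.4% overlap a gene on the other strand.

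Ciita, the switch of the programme, had 13 and 9 counts in the resistant libraries, against 9 and 5 in the sensitive libraries. A resistant and a sensitive library both had 9, which came to 0.758 and 0.694 CPM, so in CPM the groups lay close but did not overlap. The ratio of summed counts, 22 against 14, was 1.60 with an exact 95% interval of 0.784 to 3.39, so a difference was not detectable at this depth. Ciita was left out by the filter, and with no filter its log2 change was 0.67 ± 0.50 with an adjusted p of 0.629 (edgeR).

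Rfx5, the DNA-binding subunit of the RFX complex, stood at 32.3 and 34.3 CPM in resistant cells, against 28.4 and 30.2 CPM in sensitive cells. The groups did not overlap, but the log2 change was 0.19 ± 0.09 with an adjusted p of 0.290 (edgeR), which did not pass. Of its exonic bases, 26.8% overlap a gene on the other strand, and the strand setting of the counting is not given in the sources used here. Ctss, the protease that trims the invariant chain, stood at 105 and 96.4 CPM in resistant cells, against 90.3 and 91.3 CPM in sensitive cells, and did not pass (log2 change 0.15 ± 0.07, adjusted p = 0.259, edgeR). Both lie on chromosome 3, Rfx5 at 94954075 to 94961561 and Ctss at 95526786 to 95556403.

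**Figure D3:**
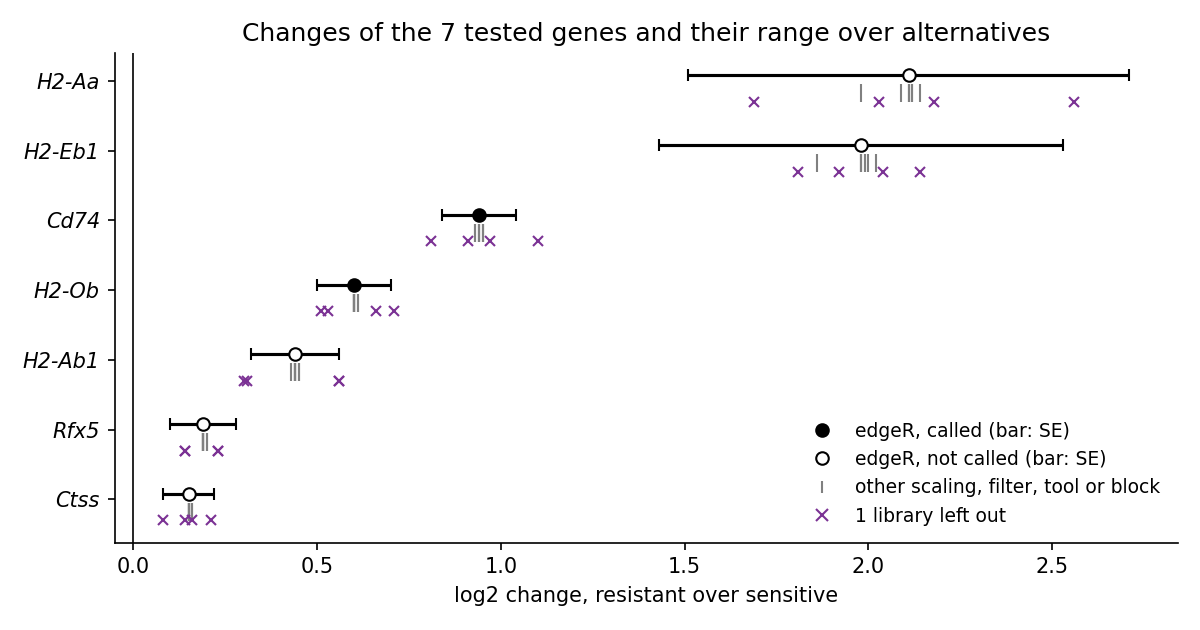
Log2 change, resistant over sensitive, of the 7 tested class II genes (points, with SE as bars, filled where called), with the values under other scalings, filters, tools or a replicate-number term (grey ticks) and with 1 library left out (purple crosses). All values are above 0, those of Cd74 (0.94) and H2-Ob (0.60) are called, and the widest bars are those of H2-Aa and H2-Eb1.

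Levels of different genes were set side by side per length, as RPKM (CPM per kilobase of all annotated exons of a gene). Ctss had the highest level, 74.3 ± 4.67 RPKM in resistant and 66.9 ± 0.533 RPKM in sensitive cells (SD, n = 2 each). Cd74 was next, at 21.1 ± 0.586 RPKM in resistant and 10.9 ± 1.55 RPKM in sensitive cells, and H2-Ab1 after it, at 8.84 ± 1.05 RPKM in resistant and 6.56 ± 0.834 RPKM in sensitive cells. These genes followed each other with no overlap of their libraries in either line.

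H2-Ob and Rfx5 came next, at 6.26 ± 0.413 and 6.06 ± 0.261 RPKM in resistant cells, where their libraries overlapped, and at 4.12 ± 0.389 and 5.33 ± 0.239 RPKM in sensitive cells, where those of Rfx5 lay above those of H2-Ob. The remaining 5 genes lay below 1 RPKM in every library. H2-Eb1 led them, at 0.542 ± 0.0321 RPKM in resistant and 0.134 ± 0.0219 RPKM in sensitive cells, followed in resistant cells by H2-Aa, at 0.253 ± 0.0176 RPKM, against 0.0587 ± 0.0256 RPKM in sensitive cells. Ciita stood at 0.102 ± 0.0321 RPKM in resistant and 0.0619 ± 0.0154 RPKM in sensitive cells, and its libraries overlapped those of H2-DMb2 in resistant cells and those of H2-Aa in sensitive cells.

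Several of these genes have a long set of annotated exons beside a shorter principal transcript. On the length of the longest principal transcript the level of H2-Aa was 0.853 ± 0.0594 RPKM in resistant and 0.198 ± 0.0861 RPKM in sensitive cells, and that of H2-Ab1 was 18.7 ± 2.24 RPKM in resistant and 13.9 ± 1.77 RPKM in sensitive cells. With those lengths H2-Aa stood above H2-Eb1 in both lines, with overlapping libraries in sensitive cells, and H2-Ab1 stood above Cd74 (13.0 ± 1.84 RPKM) in sensitive cells, also with overlapping libraries. H2-Ab1 remained far above H2-Aa on either length.

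**Figure D4:**
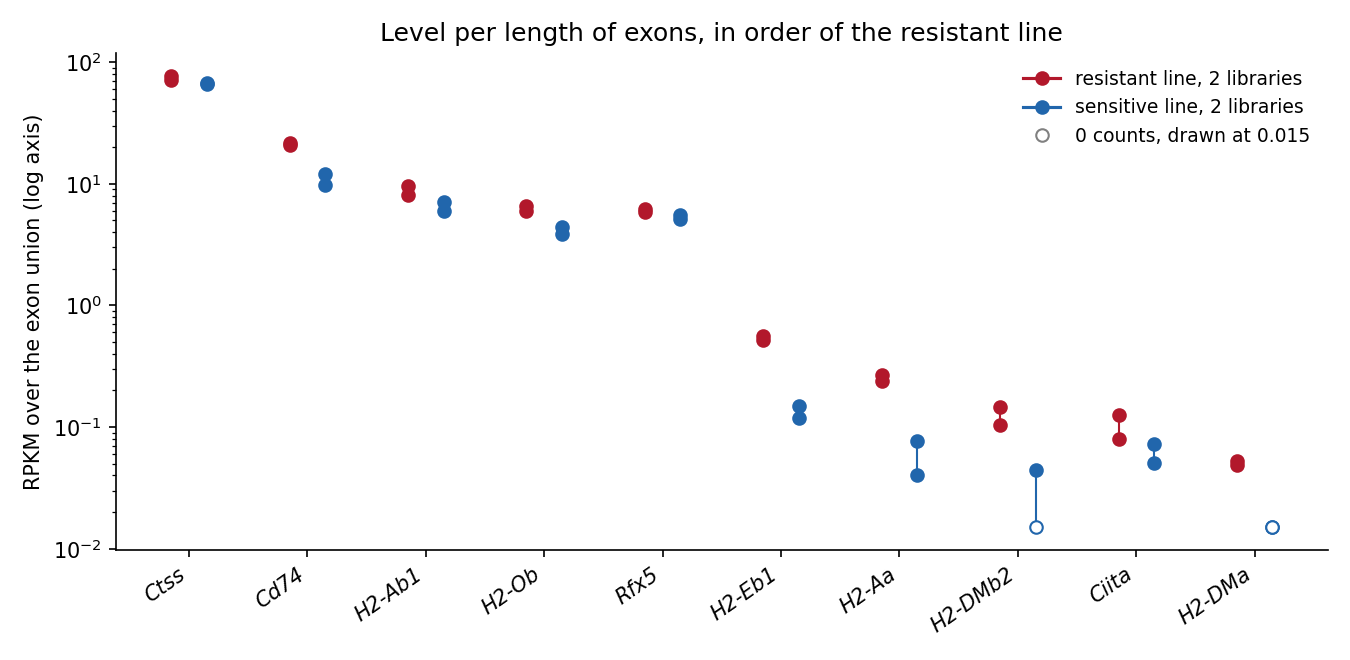
Level per length of the 10 class II genes, as RPKM over all annotated exons (log axis), for each of 2 resistant (red) and 2 sensitive (blue) libraries, joined by a line. From Ctss (74.3 RPKM in resistant cells) to Rfx5 (6.06) the genes lie well above the rest, which are under 1 RPKM, and open points are libraries with 0 counts drawn at 0.015.

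Most of the chain genes lie in a stretch of 345 kb on chromosome 17 (GRCm38, 33996017 to 34341412) that runs from the class I gene H2-K1 to H2-Eb2. Of 23 genes of the table that start there, 19 were tested, 4 rose and 0 fell, against 2.20% called higher over all tested genes, and the median log2 change was 0.27, against 0.00 over all tested genes. These values include H2-Aa and H2-Eb1, which were tested only through the resistant libraries. Among the 15 tested genes outside the class II core 3 rose and the median was 0.16. Genes that share a locus are not independent of each other, so this is a description of the locus. The 4 were H2-Ob and, outside the core, H2-K1 (0.33), the immunoproteasome subunit Psmb9 (0.52) and the peptide transporter subunit Tap1 (0.57), all of class I presentation.

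Tap1 stood at 32.2 and 33.4 CPM in resistant cells, against 21.3 and 23.0 CPM in sensitive cells. The adjacent Psmb9 stood at 28.7 and 27.2 CPM in resistant cells, against 21.1 and 17.5 CPM in sensitive cells. Without resistant replicate 2 the adjusted p of H2-K1 was 0.0856, and DESeq2 gave Psmb9 an adjusted p of 0.0818, so those calls were lost there. Brd2, a direct target of JQ1 whose gene sits among the class II genes, stood at 375 and 359 CPM in resistant cells, against 376 and 401 CPM in sensitive cells (log2 change -0.08 ± 0.06, adjusted p = 0.514, edgeR).

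**Figure D5:**
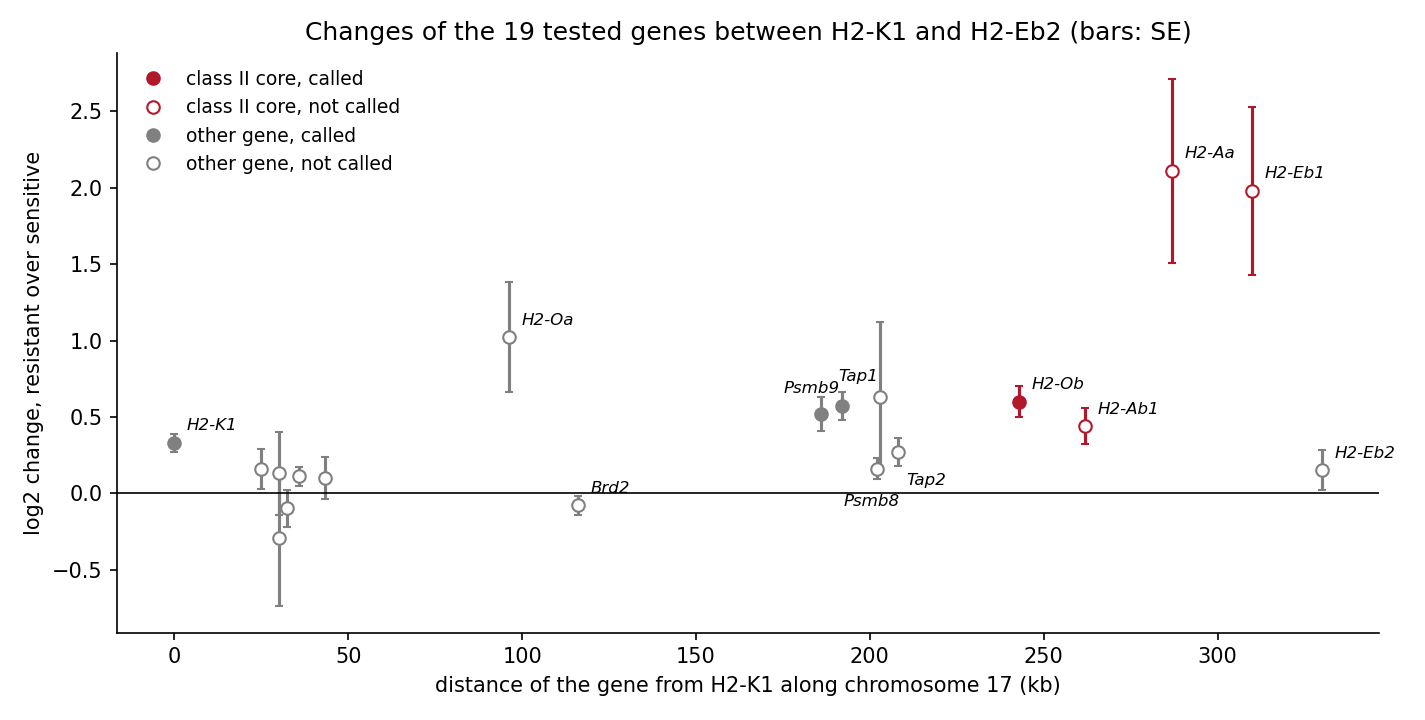
Log2 change, resistant over sensitive (SE as bars), of the 19 tested genes between H2-K1 and H2-Eb2 against their distance from H2-K1 (kb), with the class II core in red, other genes in grey and called genes filled. The 4 called genes (H2-K1, Psmb9, Tap1 and H2-Ob) lie between 0.33 and 0.60, H2-Aa and H2-Eb1 lie near 2 with wide bars, and Brd2 lies at -0.08.

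Counts for the genes that work with the core are read against all tested genes, of which 3.73% were called by edgeR, 1.74% by DESeq2 and 3.69% by limma-voom, and 16.9% had an unadjusted edgeR p below 0.05. In lists of 2 to 15 tested genes, the called shares amount to less than 1 gene. Of 6 genes of the promoter assembly (Rfxap, Rfxank, Nfya, Nfyb, Nfyc and Creb1) 0 were called by edgeR, DESeq2 or limma-voom, their median log2 change was 0.02, and 2 had an unadjusted edgeR p below 0.05. Those 2 were subunits of NF-Y and had opposite signs, Nfyb at 0.19 (adjusted p = 0.185) and Nfyc at -0.18 (adjusted p = 0.251), and Nfyc passed without sensitive replicate 1 (-0.24, adjusted p = 0.0294). Rfxap stood at 23.1 and 28.2 CPM in resistant cells, against 23.9 and 30.2 CPM in sensitive cells. None of the 3 RFX subunit genes, Rfx5 included, passed the test.

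Of 18 listed genes that act upstream of Ciita, such as those of interferon-gamma signalling and B-lineage transcription factors, Fos had no row and Prdm1 and Bcl6 were under the filter. Among the 15 tested, 1 rose and 1 fell, beside 2.20% called higher and 1.52% called lower over all tested genes. Their median log2 change was 0.11, and 5 had an unadjusted edgeR p below 0.05, beside 16.9% of all tested genes. Irf2, an interferon regulatory factor, stood at 103 and 107 CPM in resistant cells, against 78.9 and 88.6 CPM in sensitive cells, and rose (log2 change 0.33, adjusted p = 0.0113, edgeR), a call lost without resistant replicate 2 (0.30, adjusted p = 0.152). Zbtb32, a zinc finger repressor, stood at 9.79 and 7.15 CPM in resistant cells, against 15.6 and 15.1 CPM in sensitive cells, and fell (-0.86, adjusted p = 0.00205, edgeR), with a log2 change between -1.10 and -0.65 over the alternatives. Spi1, which encodes PU.1, did not pass (-0.18, adjusted p = 0.176), except without sensitive replicate 1 (-0.24, adjusted p = 0.00842).

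Among 10 genes of co-activators and chromatin partners of CIITA, with a median log2 change of -0.08, 1 fell, against 1.52% called lower over all tested genes. It was the arginine methyltransferase Carm1, at 157 and 150 CPM in resistant cells, against 177 and 189 CPM in sensitive cells (log2 change -0.25, adjusted p = 0.0268, edgeR). That call was lost in DESeq2 (adjusted p = 0.0818), without resistant replicate 1 (adjusted p = 0.133) and without resistant replicate 2 (adjusted p = 0.441). Smarca4, the ATPase of the SWI/SNF remodeller, did not pass (-0.11, adjusted p = 0.455), except without sensitive replicate 1 (-0.24, adjusted p = 2.51e-06), and Cdk9, the elongation kinase, did not pass (-0.09, adjusted p = 0.465).

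Of 9 listed genes of endosomal proteolysis and thiol reduction Ctsl was under the filter, and of the 8 tested 0 were called by edgeR, DESeq2 or limma-voom, their median log2 change was 0.02, and 1 had an unadjusted edgeR p below 0.05. It was the aminopeptidase cathepsin H gene Ctsh, at 36.9 and 36.6 CPM in resistant cells, against 19.9 and 34.3 CPM in sensitive cells (log2 change 0.47, adjusted p = 0.130). The sensitive libraries differed more from each other than the lines did on average, and leaving out sensitive replicate 1 gave Ctsh a log2 change of 0.10. Ctsh passed without sensitive replicate 2 (0.88, adjusted p = 4.46e-15), without resistant replicate 1 (0.0243) and without resistant replicate 2 (0.0215). Ctsb (0.10, adjusted p = 0.504) and the asparaginyl endopeptidase gene Lgmn (-0.09, adjusted p = 0.643) did not pass.

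Of 2 tested turnover genes 0 were called by any of these tools, with 0 at an unadjusted p under 0.05 and a median log2 change of -0.08. The ubiquitin ligase genes March8 (-0.11 ± 0.10, adjusted p = 0.637, edgeR) and March1 (-0.05 ± 0.46, adjusted p = 0.978), which direct class II molecules to degradation, did not pass. March1 had only 7 and 11 counts in resistant cells, against 12 and 7 in sensitive cells, so depth limits it. Cd83, also listed, had no row. Of 4 tested accessory genes, Cd80 (-0.54, adjusted p = 0.439), Cd40 (0.21, adjusted p = 0.770), Icam1 (-0.03, adjusted p = 0.906) and Cd86, 0 were called by edgeR, DESeq2 or limma-voom, 0 had an unadjusted edgeR p below 0.05, and the median log2 change was -0.05.

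All 7 listed B-cell markers had a row and were tested, and 1 rose, the B-cell surface lectin gene Cd22, against 2.20% called higher over all tested genes. The other 6 did not pass, with log2 changes between -0.04 and 0.17. Of the 7, 3 had an unadjusted edgeR p below 0.05, against 16.9% of all tested genes. Cd22 stood at 172 and 168 CPM in resistant cells, against 136 and 144 CPM in sensitive cells (log2 change 0.28, adjusted p = 0.0129, or 0.215 without resistant replicate 1 and 0.110 without resistant replicate 2). Cells other than B cells also carry class II, and in bulk RNA fewer cells of a type and less RNA per cell cannot be told apart. Of 11 macrophage and monocyte markers 5 had a row, with a summed level of 8.33 and 8.42 CPM in resistant cells, against 7.71 and 8.26 CPM in sensitive cells, while Adgre1, Lyz2, Fcgr1, Mertk, C1qa and C1qb had none. None of the 3 tested was called by any of the 3 tools, and 0 had an unadjusted edgeR p below 0.05. The median log2 change of the 3 was 0.25, from Itgam (0.40, adjusted p = 0.626, edgeR), Cd68 (0.25, adjusted p = 0.674) and Mpeg1 (-0.37, adjusted p = 0.432). Mpeg1 stood at 3.20 and 2.86 CPM in resistant cells, against 3.85 and 3.98 CPM in sensitive cells. Under the filter were Csf1r, with 5 and 3 counts in resistant cells, against 1 and 0 in sensitive cells, and Cd14, with 2 and 1 against 1 and 0.

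Of 9 dendritic-cell markers 4 had a row, with a summed level of 46.1 and 44.3 CPM in resistant cells, against 47.0 and 46.4 CPM in sensitive cells, most of it from Ccr7, which B cells also express. Itgax, Clec9a, Siglech, Cd209a and Batf3 had no row. Under the filter were Zbtb46, with 1 and 0 counts in resistant cells, against 2 and 2 in sensitive cells, and Xcr1, with 3 and 9 against 5 and 6. Among the 2 tested, Ccr7 did not pass (log2 change -0.11, adjusted p = 0.514, edgeR) and Flt3 rose, against 2.20% called higher over all tested genes. Flt3, a cytokine receptor of progenitors and dendritic cells, stood at 3.84 and 3.11 CPM in resistant cells, against 1.70 and 1.65 CPM in sensitive cells (log2 change 1.04, adjusted p = 0.0418, edgeR). That call was lost in DESeq2 (adjusted p = 0.504), in limma-voom (0.0545), without resistant replicate 1 (0.329) and without resistant replicate 2 (0.0557). Of 8 T-cell markers 2 had a row, Lck and Cd3d, and they summed to 0.641 and 0.505 CPM in resistant cells, against 0.539 and 0.777 CPM in sensitive cells. Of 5 plasma-cell markers 4 had a row, and among the 3 tested Sdc1, a surface proteoglycan, fell (-0.70, adjusted p = 0.00245, edgeR), against 1.52% called lower over all tested genes. Xbp1 (0.01, adjusted p = 0.978) and Irf4 (-0.10, adjusted p = 0.404) did not pass, except Irf4 without sensitive replicate 1 (-0.17, adjusted p = 0.00732). Prdm1 had 2 counts in each resistant library and 0 in each sensitive library. The part of such cells in the class II values was not tested.

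Likeness to Cd74 and to H2-Ab1 was taken as root-mean-square difference of centred log2 CPM over 4 libraries. The ranking covered tested genes, leaving out the class II core and predicted or clone-named genes. Nearest to Cd74 were the protease inhibitor gene Serpinb1a (0.0425), the sorting receptor gene Sorl1 (0.0467), Stk32c (0.0483), Zfp358 (0.0534) and Nlrc5 (0.0686). Nlrc5 is the class I counterpart of CIITA. Nearest to H2-Ab1 were Pfkfb4 (0.0270), Pafah2 (0.0318), Fam169b (0.0381), Pear1 (0.0397) and the histone gene Hist1h2bc (0.0417). Stk32c had at most 16 counts in any library, and Pfkfb4, Pafah2 and Hist1h2bc at most 46, 38 and 35. With 4 libraries many genes take a similar course, and these are descriptions only. Between Cd74 and H2-Ab1 themselves, H2-Ab1 took 40.5% (exact 95% interval 36.8 to 44.4) and 37.4% (33.7 to 41.2) of their summed counts in resistant cells, against 43.2% (38.6 to 47.8) and 52.6% (47.3 to 57.9) in sensitive cells. Sensitive replicate 1 lay closer to both resistant libraries than to sensitive replicate 2, and its interval overlapped both of theirs. The interval of sensitive replicate 2 overlapped neither.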

How the data were processed

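RNA was sequenced from 2 resistant and 2 sensitive libraries, made from total RNA with a TruSeq kit per the labels' protocols. The deposited values are raw counts per Ensembl gene, which the authors did not normalize. The submitters' processing notes list TopHat, Bowtie2, HTSeq, limma, FastQC and cutadapt 1.7, with GRCm38 and mm10 as builds. The sources used here do not give the part of each tool, the strand setting or the gene annotation. All 4 columns matched a library by name, and 0 columns were left unused.

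Symbols and positions came from GENCODE M21 (GRCm38), which matched 16393 of 16591 identifiers. The counts were tested with edgeR's quasi-likelihood test, version 4.0.16 (R 4.3.3), with TMM factors and the line as the only term, after filterByExpr (minimum count 10, minimum total 15). P-values were adjusted by Benjamini-Hochberg over 11945 genes, and SEs derive from the F statistic. Shares carry exact (Clopper-Pearson) intervals, which with the floor of 3 counts cover counting error only. Alternatives used DESeq2 1.42.0, limma 3.58.1 (voom), other scalings and filters, the replicate block and each library left out. The fit was also run on simulated counts, with the same spread for every gene. Changes were set only in genes averaging at least 10 counts. The run therefore does not bear on the class II genes near the floor, and its outcome is not given here.

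The members and lists were chosen with earlier results of these data known. All 10 members are named, with up to 3 genes of smallest p per list, called genes of the chromosome 17 stretch with Brd2, and the 5 genes nearest to Cd74 and to H2-Ab1. Csf1r, Mpeg1, Itgam, Cd68, Cd14, Cd22, Flt3, Ccr7, Zbtb46, Xcr1, Lck, Cd3d, Sdc1, Xbp1, Irf4 and Prdm1 were named after their values were seen.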

Additional observations from a re-analysis of the deposited data

How the results depend on the processing

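Of 89 values of the 7 tested class II genes under 13 alternatives, 81 kept their direction and their side of the threshold, 8 kept the direction and came to pass, and 0 lost a call or reversed. The 8 were those of H2-Ab1, H2-Aa and H2-Eb1. The number of class II genes called was 2 in edgeR with the filter and all 4 libraries, and 3 with no filter. It was 2 in DESeq2, 4 in limma-voom and 5 with the replicate block. The calls in limma-voom and with the replicate block include H2-Aa and H2-Eb1. The filter kept both through the resistant libraries alone, so for them a higher resistant value was a condition of being tested. The number of all genes called was 445, or 208 in DESeq2, 595 with the replicate block and 270 to 1381 when 1 library was left out. The 445 (3.73%), the 208 (1.74%) and the 595 were each out of 11945 tested genes. In limma-voom 441 of 11945 genes (3.69%) were called, and with no filter 487 of 16591. With 1 library left out, 12230 to 12318 genes were tested. Leaving a library out leaves 1 for its line, which is then assumed to vary like the other line. With the replicate block the adjusted p was 0.00646 for H2-Ab1, 0.0493 for H2-Aa, 0.0422 for H2-Eb1 and 1.46e-04 for Ctsh. The labels do not say what a shared replicate number means, and deviations of same-numbered libraries from their line's mean had a correlation of -0.02 over genes. The filters at a sum of 10 counts and the principal transcript lengths were chosen after seeing the data. The scalings moved the log2 changes of Cd74 and H2-Ob by 0.01 at most. Depth limits Ciita, H2-Aa, H2-Eb1, H2-DMa and H2-DMb2, whose counts reach 13 at most.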
